A study of Mus musculus with 8 samples.

Results

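Respiratory complex I (NADH dehydrogenase) was examined through its nuclear genes, the subunits and assembly factors that the cell makes around the mitochondrially encoded subunits. The members were all genes whose symbol in the normalized array table begins with Nduf, together with Ecsit, an assembly factor of the complex. This rule took 36 of the 18138 gene symbols in the table, measured by 45 probes. Expression was profiled in skin fibroblasts of Nd2-mutant mice, strain C57BL/6J-mtALR/LtJ, and of control mice, strain C57BL/6J-mtAKR/J, on MouseRef-8 v2.0 Expression BeadChips with 1 array per mouse. Both strains are conplastic: repeated backcrossing placed the mitochondrial genome of a donor strain on the nuclear background of C57BL/6J, and the study describes them as differing by a mutation in mitochondrial Nd2. The Nd2-mutant group held mice 28 and 32, both male, and mice 34 and 35, both female. The control group held mice 16 and 17, both male, and mice 15 and 37, both female. All mice were 12 months of age, the cells were primary cultures in DMEM with fetal calf serum, and no treatment was given in the labels. The question was whether the nuclear part of the complex is transcribed differently when its Nd2 subunit is mutated. mt-Nd2 itself was not analysed here.

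Complex I takes electrons from NADH and passes them along a chain of iron-sulphur clusters to ubiquinone, while its membrane arm pumps protons. Its NADH module (N) holds the flavin site that accepts electrons, the ubiquinone module (Q) hands them on, and the membrane arm carries the pumping subunits, ND2 among them. Nuclear subunits are imported into the mitochondrion and joined to the mitochondrially encoded ones by assembly factors, of which Ndufaf1 and Ecsit belong to the group that builds the part of the membrane arm around ND2.

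The RefSeq promoter table (build GRCm38.p6, 250 bases before to 50 after each start site) gave windows for 32 of the 36 members. It did not hold Ndufa2, Ndufb9 and Ndufs1, and a member not reported here on its own was not looked up. These windows were searched on both strands for 4 motifs of factors known for nuclear genes of mitochondria. AAGATGGCG, the letters of a YY1 motif, stood in the windows of 5 of 32 members (15.6%) and of 1.64% of all 27025 genes in the table. The 5 stretches are printed here, 30 bases each and 5′ to 3′ on the strand of the gene with the motif in capitals, because this was the only one of the 4 motifs found in more than 1 member.
Ndufa9, chr6:126849101-126849130, minus strand: gaggcattgtgggagAAGATGGCGgccgcc
Ndufc1, chr3:51408919-51408948, minus strand: cggagcctgcggaacAAGATGGCGccgtcc
Ndufs4, chr13:114388045-114388074, minus strand: gcgtttgcctacaggAAGATGGCGgcggtc
Ndufs6, chr13:73328435-73328464, minus strand: tcaagggtcaccggcAAGATGGCGgcggtg
Ndufs7, chr10:80249458-80249487, plus strand: ctgaaggccgaggccAAGATGGCGgcgctg
In all 5 the motif lay after the start site, in the last 50 bases of the window. The NRF-1 core CGCATGCG was found in the window of Ndufa8 (2.07% of all genes) and the GABP/Ets letters CCGGAAGT, on the opposite strand, in that of Ndufs3 (4.31% of all genes), while the ERR letters TCAAGGTCA were found in 0 of 32 members and 0.466% of all genes. The single occurrences are printed to show where they lie at the start site.
Ndufa8, chr2:36049334-36049363, minus strand: tgcgcgtcgctggagaCGCATGCGcagatg
Ndufs3, chr2:90904708-90904737, minus strand: gtcactgcacatttccACTTCCGGtccgtg
The window of Ecsit held none of the 4 motifs. A match of letters is a description of the window and not of a bound factor.

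The values are normalized intensities on the linear scale, which were set to 0 where negative and raised by 16 before log2 was taken. A probe was tested with limma if it was detected (detection p-value under 0.01) on all 4 arrays of at least 1 strain. This left 42 of the 45 probes and 34 of the 36 genes. The untested probes were the 2 of Ndufb11, detected on 2 and 0 of 8 arrays, and the probe of Ndufs1, the largest subunit of the NADH module, detected on 0 arrays. 41 of the 42 tested probes were detected on all 8 arrays, and that of Ndufab1 on 7. Over all tested probes, the array of control mouse 15 stood apart: its mean correlation with the other arrays was 0.934, against 0.963 to 0.974 for the other 7. Counts by role, and differences that turned or moved by over 1.5 times, are therefore also given without this mouse. In bulk RNA, fewer cells that express a gene and less RNA of that gene per cell cannot be told apart, and p-values measure the spread between mice. Each of 8 fibroblast markers, including the collagens and Pdgfra, was detected on all 8 arrays. So were 4 of 6 smooth muscle and pericyte markers, 3 of 7 macrophage markers and 2 markers each of keratinocytes, endothelial cells and skeletal muscle, while no melanocyte or adipocyte marker was.

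No member passed the test between the strains. With limma, 0 of 42 probes had an adjusted p under 0.05, the smallest adjusted p being 0.639, and over all 10414 tested probes 0% were called. At an unadjusted p under 0.05 stood 1 member probe, that of Ecsit, which was lower in Nd2-mutant fibroblasts, while 7.63% of all tested probes did so (3.13% lower and 4.50% higher). The intensities of the strains overlapped for 42 of 42 member probes, where 4.37% of all tested probes showed no overlap. 25 member probes stood higher in Nd2-mutant fibroblasts and 17 lower, and 50.2% of all tested probes were higher. The median log2 difference of the members was 0.05, the lowest was -0.38 (0.767-fold), and the median of all tested probes was 0.00. For 42 of 42 probes the 95% interval of the difference excluded a 2-fold change, as it did for 9272 of all 10414 tested probes. For 30 of 42 it excluded a 1.5-fold change (5319 of all 10414), and the plot of differences by role shows the intervals. These bounds hold on the log2 scale used, which understates differences of dim probes such as those of Ndufab1, Ndufb4 and Ndufb7. For such probes a 2-fold or 1.5-fold change of the intensity itself is not excluded by them. The precision is limited by 4 arrays per strain.

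**Figure D1:**
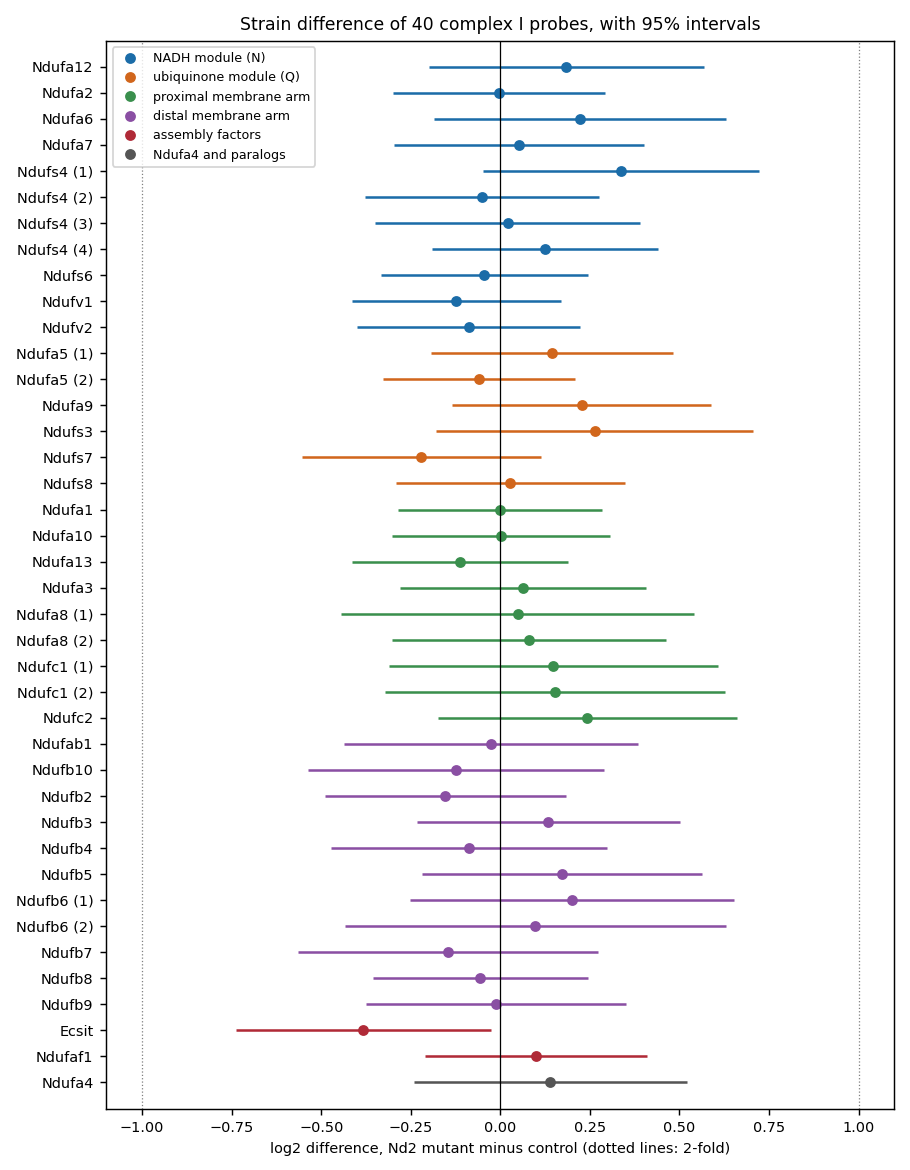
Difference between the strains for 40 of the 42 tested probes. The x axis gives the log2 difference, Nd2 mutant minus control (4 mice each), points are the estimates, lines the 95% intervals from limma, dotted lines a 2-fold change, and colours the role of the gene in the complex; numbers after a name separate probes of a gene. All intervals drawn end inside 2-fold, and that of Ecsit alone lies wholly below 0.

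Ecsit, which works in the assembly of the membrane arm and is also known as an adaptor in innate immune signalling, had the lowest difference of the members. Its probe ILMN_2824167 had intensities of 110, 165, 132 and 136 in Nd2-mutant mice 28, 32, 34 and 35, and of 201, 207, 151 and 167 in control mice 15, 16, 17 and 37. Mouse 32 of the Nd2-mutant group lay above control mouse 17, so the strains overlapped, with the other 3 Nd2-mutant mice below all controls. The log2 difference was -0.38 (95% interval -0.74 to -0.03, unadjusted p = 0.038, adjusted p = 0.639 from limma), and the exact 2-sided permutation p was 0.0571. Without control mouse 15 the difference was -0.33 (unadjusted p = 0.066 from limma). The study lists Ecsit among its lower genes from these same arrays, so this difference is not independent evidence for that entry.

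Ndufaf1, the other member among the assembly factors and a partner of Ecsit in the same complex, did not share this difference in sign. Its intensities were 281, 329, 276 and 304 in Nd2-mutant mice 28, 32, 34 and 35 and 241, 299, 254 and 315 in control mice 15, 16, 17 and 37. These ranges overlapped over most of their length. The log2 difference was 0.10 (95% interval -0.21 to 0.41, adjusted p = 0.834 from limma), and 0.04 without control mouse 15.

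The subunits that surround ND2 in the proximal membrane arm are Ndufa10, Ndufc1 and Ndufc2, and no probe was found for Ndufs5 or, elsewhere in this arm, for Ndufa11. Ndufa10 had intensities of 1258, 1462, 1379 and 1574 in Nd2-mutant mice 28, 32, 34 and 35 and of 1247, 1550, 1374 and 1498 in control mice 15, 16, 17 and 37. The means were nearly equal, with a log2 difference of 0.00 (95% interval -0.30 to 0.31), and of -0.06 without control mouse 15. Ndufc2 had intensities of 287, 278, 318 and 238 in the Nd2-mutant mice and of 158, 254, 289 and 254 in the control mice, in the same order. Control mouse 15 was the lowest, and the log2 difference of 0.24 (95% interval -0.18 to 0.66) was 0.07 without it. Ndufc1 was measured by 2 probes that ran alike.
The first, ILMN_1229975, had intensities of 660, 637, 608 and 563 in the Nd2-mutant mice and of 348, 705, 633 and 606 in the control mice. The second, ILMN_2983247, had 592, 652, 689 and 691 in the Nd2-mutant mice and 360, 756, 647 and 672 in the control mice. Both put control mouse 15 lowest and control mouse 16 highest. Their log2 differences were 0.15 and 0.15, and without control mouse 15 they were -0.07 and -0.07. The other measured subunits of this arm were Ndufa1, Ndufa3, Ndufa8 and Ndufa13, the last also known as the cell death regulator Grim19. Ndufa8, measured by 2 probes, had log2 differences of 0.05 and 0.08, or -0.19 and -0.08 without control mouse 15, and mouse 15 stood at 48.5% and 64.1% of the mean of the other controls. Ndufa13 had the lowest difference of the arm, -0.11, with mouse 15 at 97.1% of that mean, and Ndufa1 and Ndufa3 had 0.00 and 0.06, or -0.06 and -0.01 without this mouse. Over the 9 tested probes of the proximal arm, 7 stood above the controls and 2 below, with a median log2 difference of 0.06, whereas without control mouse 15, 1 was higher and 8 lower, with a median of -0.07.

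The ubiquinone module had the highest median difference among the roles with more than 2 probes, 0.19, with 6 of its 8 probes higher, and control mouse 15 carried most of it. Ndufs3 is a core subunit that lies near the ubiquinone site. Its intensities were 527, 577, 539 and 530 in Nd2-mutant mice 28, 32, 34 and 35 and 289, 491, 586 and 489 in control mice 15, 16, 17 and 37. Control mouse 15 stood at 55.3% of the mean of the other controls, and the log2 difference of 0.26 (95% interval -0.18 to 0.71) was 0.06 without it.

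Ndufs7 and Ndufs8, also core subunits of the ubiquinone module, bind iron-sulphur clusters on the way to ubiquinone. Ndufs7 had intensities of 904, 1097, 1014 and 1261 in Nd2-mutant mice 28, 32, 34 and 35 and of 1321, 1399, 1138 and 1119 in control mice 15, 16, 17 and 37. It was 1 of the few members for which control mouse 15 was not low, and its log2 difference was -0.22 (95% interval -0.55 to 0.11, adjusted p = 0.689 from limma), the second lowest of the members. Ndufs8 had intensities of 604, 596, 727 and 711 in the Nd2-mutant mice and of 555, 625, 666 and 743 in the control mice. Here the ranges lay over each other, and the log2 difference was 0.03 (95% interval -0.29 to 0.35), or -0.04 without control mouse 15. Ndufa5 and Ndufa9 are accessory subunits of the module. The 2 probes of Ndufa5 differed in sign, at 0.14 and -0.06 (0.04 and -0.09 without control mouse 15), and Ndufa9 had a log2 difference of 0.23, or 0.11 without control mouse 15. Without control mouse 15, 4 of the 8 probes of the module were higher and 4 lower, with a median log2 difference of 0.00.

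In the NADH module, Ndufv1 carries the flavin that accepts electrons from NADH, and Ndufv2 an iron-sulphur cluster beside it. Ndufv1 had intensities of 1331, 1485, 1451 and 1654 in Nd2-mutant mice 28, 32, 34 and 35 and of 1631, 1760, 1530 and 1523 in control mice 15, 16, 17 and 37. Ndufv2 had intensities of 1374, 1277, 1292 and 1439 in the Nd2-mutant mice and of 1183, 1635, 1476 and 1465 in the control mice. Control mouse 16 was the highest of the 8 mice for both, and the strains overlapped. The log2 differences were -0.12 (95% interval -0.41 to 0.17) and -0.09 (95% interval -0.40 to 0.22), and without control mouse 15 they were -0.12 and -0.18. Ndufs4, an accessory subunit needed for a stable module, was measured by 4 probes whose log2 differences were 0.34, -0.05, 0.02 and 0.12, so that its probes differed in sign. Without control mouse 15 they were 0.18, -0.14, -0.06 and 0.03. The accessory subunits Ndufa6, Ndufa12 and Ndufa7 had log2 differences of 0.22, 0.18 and 0.05, or 0.07, 0.02 and -0.07 without control mouse 15, and in that mouse they stood at 64.8%, 61.6% and 71.0% of the mean of the other controls. Ndufa2 and Ndufs6, for which mouse 15 lay at 92.0% and 92.7% of that mean, had log2 differences of 0.00 and -0.04, and of -0.03 and -0.07 without it. Over the 11 tested probes of the module, 6 were higher and 5 lower, with a median log2 difference of 0.02. With control mouse 15 left out, 4 were higher and 7 lower, with a median of -0.06.

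The distal membrane arm, made of the Ndufb subunits and the acyl carrier protein Ndufab1, had 11 tested probes of 10 genes. Of these, 4 stood above the controls and 7 below, between -0.15 and 0.20 on the log2 scale, with a median of -0.03. With control mouse 15 left out, 2 were higher and 9 lower, with a median of -0.11. The highest were the 2 probes of Ndufb6 with 0.20 and 0.10, Ndufb5 with 0.17 and Ndufb3 with 0.13, and without control mouse 15 these were 0.00, -0.12, 0.03 and 0.08. The lowest were Ndufb2 with -0.15, Ndufb7 with -0.15 and Ndufb10 with -0.12, and Ndufb4, Ndufb8, Ndufab1 and Ndufb9 lay between -0.09 and -0.01. Without that mouse, Ndufb7 was at -0.29, Ndufb2 at -0.26, Ndufb4 at -0.24, Ndufab1 at -0.18, Ndufb10 at -0.11 and Ndufb8 at -0.10. Several of these probes were dim: the intensity of Ndufab1 lay between 9.75 and 26.2, that of Ndufb4 between 21.5 and 46.3 and that of Ndufb7 between 24.5 and 52.1, and differences of dim probes are understated on the scale used. Ndufa4, named for complex I but now counted as a subunit of complex IV, had a log2 difference of 0.14, and 0.02 without control mouse 15.

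Control mouse 15 was the lowest of the 8 mice for 33 of 42 member probes, or 78.6%, while it was the lowest for 31.4% of all tested probes. It was the highest for 0 of 42 member probes and for 26.5% of all tested probes. Its mean deviation from the 8-mouse mean over the members was -0.36 on the log2 scale, and the other 7 mice lay between -0.02 and 0.14. The low value ran through all 4 structural roles: 9 of 11 probes of the NADH module, 6 of 8 of the ubiquinone module, 8 of 9 of the proximal arm and 8 of 11 of the distal arm were lowest in this mouse. Of the probes of complexes II to V, 28 of 36 (77.8%) were lowest in the same mouse. The 9 probes not lowest in mouse 15 were those of Ecsit, Ndufs6, Ndufs7, Ndufv1, Ndufa13, Ndufb8, Ndufb9, Ndufb10 and 1 of the 2 of Ndufa5. Among the named members, mouse 15 stood at 115% of the mean of the other controls for Ecsit, 108% for Ndufs7 and 102% for Ndufv1.

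**Figure D2:**
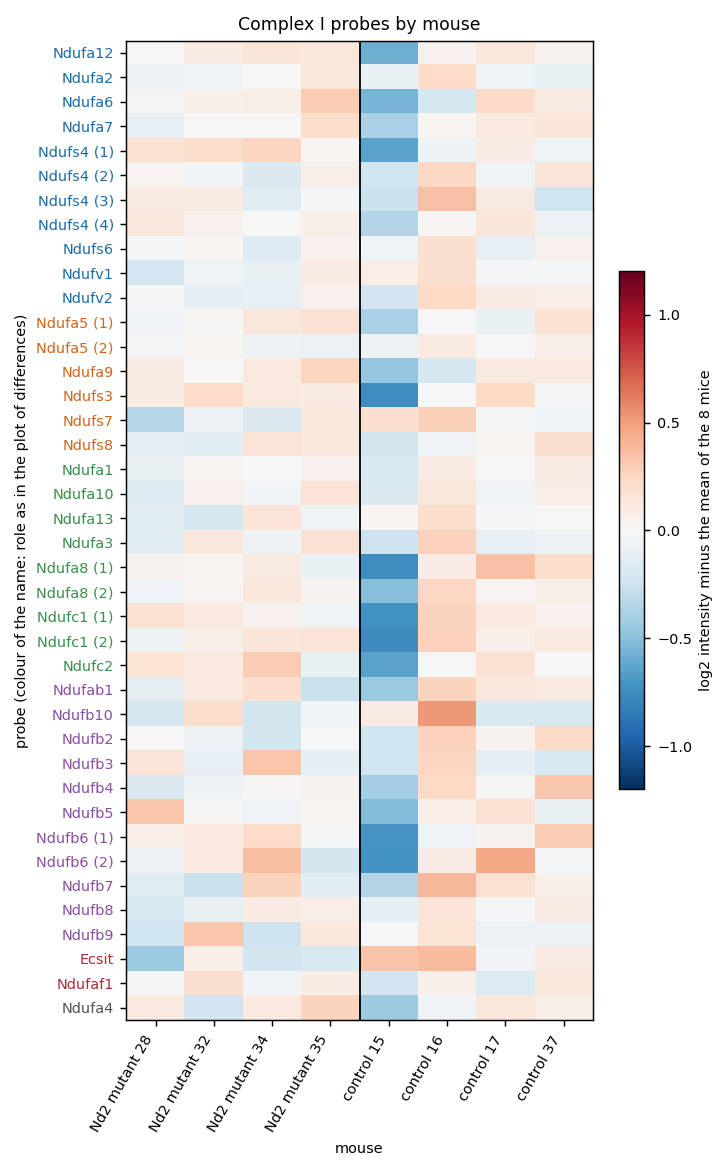
Log2 intensity of 40 of the 42 tested probes in each mouse, minus the mean of the 8 mice. Columns are the 4 Nd2-mutant and 4 control mice, rows the probes with names coloured by role, red above and blue below the mean; the column of control mouse 15 is blue for most probes, and pale or red for Ecsit, Ndufs7 and Ndufv1.

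**Figure D3:**
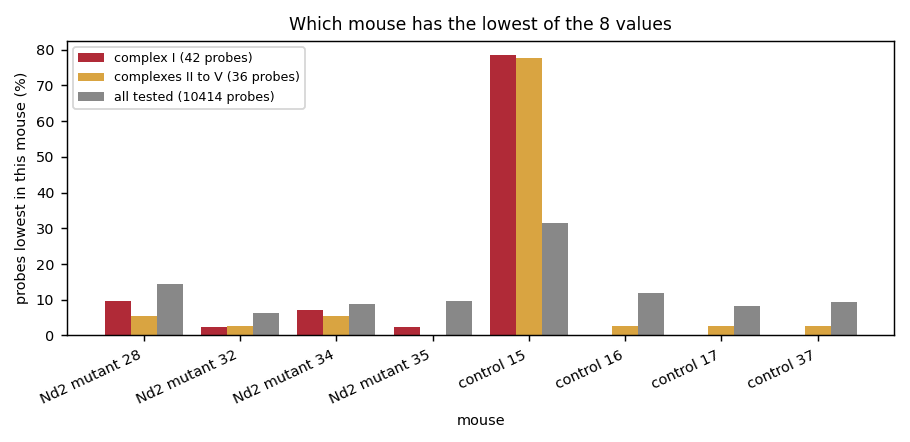
Share of probes (%) with the lowest of their 8 values in each mouse. Bars stand for the 42 complex I probes, the 36 probes of complexes II to V and all 10414 tested probes; control mouse 15 holds 78.6%, 77.8% and 31.4%.

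Control mouse 16 lay at the other end, with the highest of the 8 values for 19 of 42 member probes (45.2%), against 15.7% of all tested probes. The SD over the control mice was larger than that over the Nd2-mutant mice for 36 of 42 member probes (85.7%) and for 73.4% of all tested probes. Without control mouse 15 this held for 24 of 42 member probes (57.1%) and for 55.3% of all tested probes. The median SD of the member probes was 0.12 on the log2 scale in Nd2-mutant mice and 0.25 in control mice, and 0.13 in the 3 controls other than mouse 15. The intensities of selected genes in each mouse show both kinds of member.

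**Figure D4:**
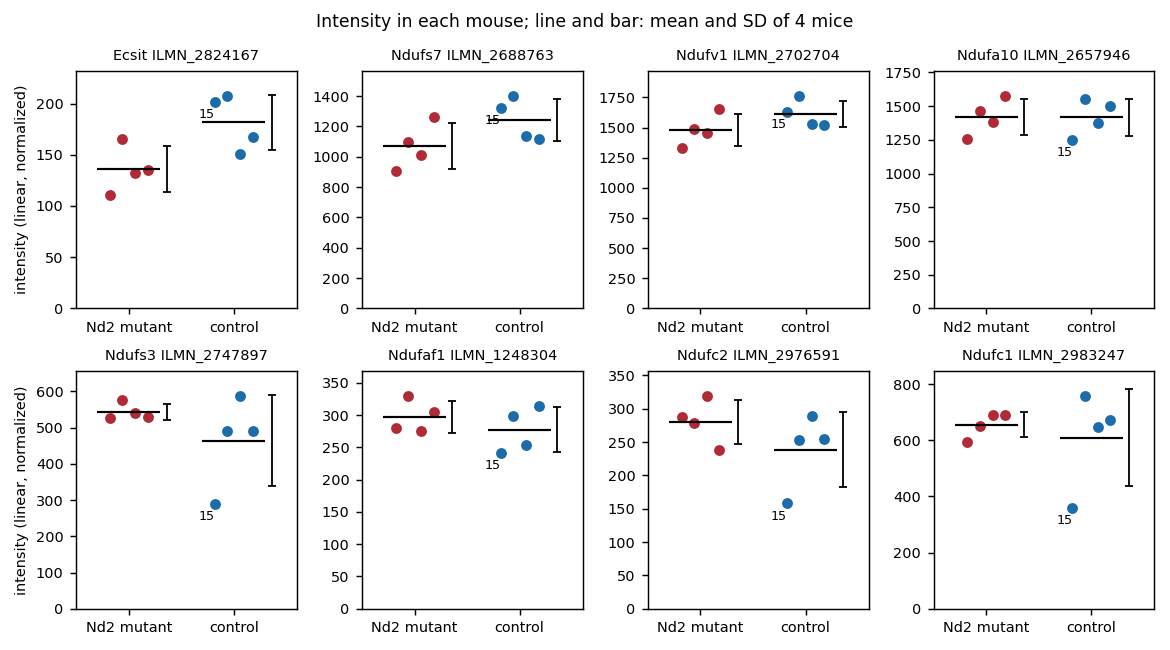
Normalized intensity (linear axis from 0) of 8 members in each mouse, with the mean and SD of the 4 mice of each strain; for genes with 2 probes the brighter is drawn, and control mouse 15 is marked. It lies lowest for Ndufa10, Ndufs3, Ndufaf1, Ndufc2 and Ndufc1, and within the controls for Ecsit, Ndufs7 and Ndufv1.

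Marker genes of other cells were set beside this. In control mouse 15 the summed intensity of the 8 fibroblast markers was 42013, the highest of the 8 mice (28799 to 39666 in the others). The summed endothelial markers were at 289 against 61.3 to 174, with 5 of 6 detected and Kdr at background in every mouse, and the smooth muscle and pericyte markers at 14618 against 11004 to 14362. The macrophage markers, at 693 against 261 to 1530, the keratinocyte markers, at 920 against 191 to 1152, and the skeletal muscle markers, at 995 against 287 to 1283, lay within the range of the other mice. The number of detected probes was 10735 in this mouse, and 10663 to 10837 over the controls and 10973 to 11350 over the Nd2-mutant mice. The part of these values in the low complex I intensities was not tested.

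Once control mouse 15 was left out, 13 member probes stood above the controls and 29 below, where 48.2% of all tested probes were higher. The median log2 difference of the members was then -0.06, and that of all tested probes -0.01. With limma, 0 of 42 member probes had an adjusted p under 0.05 (0% of all tested probes) and 0 had an unadjusted p under 0.05 (7.79% of all tested probes). The differences spanned -0.33 to 0.18. The sign turned from higher to lower for 12 of 42 probes and from lower to higher for 0, as the plot of differences with and without this mouse shows.

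**Figure D5:**
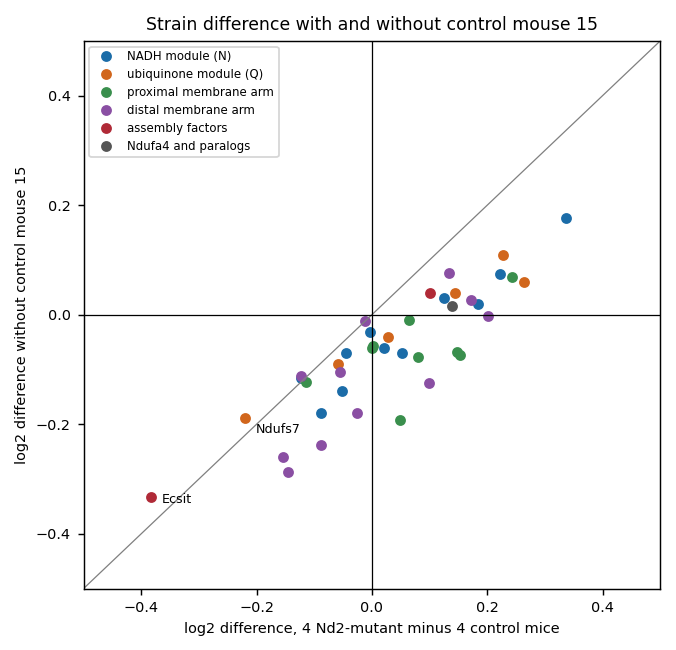
Log2 difference between the strains (Nd2 mutant minus control) for 40 of the 42 tested probes with all 8 mice (x axis) and without control mouse 15 (y axis), coloured by role. Most points lie below the diagonal of equal values; Ecsit and Ndufs7 lie near it, on the side of lower values in Nd2-mutant fibroblasts.

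The sexes were compared in a fit that also held the strain. With limma, 0 of 42 member probes had an adjusted p under 0.05 (0.0192% of all tested probes), and 1 had an unadjusted p under 0.05 (8.31% of all tested probes). That probe, ILMN_2663694 of Ndufs4, was higher in males by 0.33 on the log2 scale (unadjusted p = 0.035, adjusted p = 0.578 from limma). Its intensities were 424, 428, 508 and 427 in male mice 28, 32, 16 and 17 and 357, 387, 328 and 332 in female mice 34, 35, 15 and 37. The sexes did not overlap for this probe, and the share of all tested probes without such overlap was not counted. They also did not overlap for ILMN_1229975 of Ndufc1, at 633 to 705 in males and 348 to 608 in females. That probe was higher in males by 0.33 on the log2 scale (unadjusted p = 0.104 from limma). On the other Ndufs4 probes, ILMN_1234521, ILMN_2640944 and ILMN_2900025, the sexes overlapped. These were higher in males by 0.21, 0.10 and 0.17 on the log2 scale (unadjusted p = 0.242, 0.527 and 0.233 from limma). Of the member probes, 32 of 42 were higher in males (52.4% of all tested probes), but 22 of 42 without control mouse 15, which is female.

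The interaction of strain and sex, the strain difference in males minus that in females, had an adjusted p under 0.05 for 0 of 42 member probes (0.00960% of all tested probes) and an unadjusted p under 0.05 for 0 of 42 (1.77% of all tested probes) with limma. It was negative for 38 of 42 member probes (53.9% of all tested probes), with a median of -0.29 on the log2 scale. When control mouse 15 was left out it was negative for 29 of 42, with a median of -0.06. Within males, 13 member probes stood above the controls and 29 below, with a median log2 difference of -0.10. Within females, where mouse 15 is 1 of the 2 controls, 33 were higher and 9 lower, with a median of 0.21. With 2 mice in each cell of strain and sex, these values have little precision.

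Other genes of the complex stand in the table under names that the rule did not take. Ndufv3, of the NADH module, and the assembly factors Ndufaf3, Ndufaf4, Ndufaf5 and Ndufaf7 were found under older symbols, with 8 tested probes. Of these 6 were higher and 2 lower, with a median log2 difference of 0.11, and 0 had an unadjusted p under 0.05 in limma (7.63% of all tested probes). With control mouse 15 left out, 3 were higher and 5 lower, with a median of -0.034, and 2 had an unadjusted p under 0.05 (7.79% of all tested probes). The lower probes were both of Ndufaf5, which hydroxylates an arginine of Ndufs7, with log2 differences of -0.33 and -0.14. The same probes were the 2 without control mouse 15, at -0.43 and -0.36 (adjusted p = 0.614 for both from limma). Of 11 further genes known for complex I assembly or import, 10 were found on the array and 9 tested, by 13 probes. Here 10 probes were higher and 3 lower, with a median log2 difference of 0.08, and 0 had an unadjusted p under 0.05 in limma. With control mouse 15 left out, 6 were higher and 7 lower, with a median of 0.00. Of the 13, 1 then had an unadjusted p under 0.05 (7.79% of all tested probes). It was that of Timmdc1 (log2 difference -0.34, adjusted p = 0.626 from limma). Acad9, which acts with Ecsit and Ndufaf1 around ND2, had log2 differences of 0.38 and 0.40 on its 2 probes (adjusted p = 0.639 for both from limma). Its first probe had intensities of 92.8, 92.0, 79.2 and 68.8 in Nd2-mutant mice 28, 32, 34 and 35 and of 40.5, 54.4, 79.8 and 70.9 in control mice 15, 16, 17 and 37. The strains overlapped, with control mice 15 and 16 low, and without control mouse 15 the log2 differences were 0.24 and 0.29. Aifm1, which helps import into the intermembrane space, had 1 probe lower without overlap (log2 difference -0.33, adjusted p = 0.639 from limma). It was the only 1 of the 13 without overlap, where 4.37% of all tested probes showed none. Another probe of Aifm1 was at 0.26, so that its probes differed in sign. Over the 36 probes of complexes II to V, 29 were higher with a median log2 difference of 0.10, and without control mouse 15, 15 were higher and 21 lower, with a median of -0.05.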

How the data were processed

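RNA of skin fibroblasts from 4 Nd2-mutant and 4 control mice was hybridised to 8 Illumina arrays. The authors quantile normalized the probe intensity between arrays in GenomeStudio, whose version is not given in the sources used here, and state that background was subtracted where needed. The deposited intensities are linear and reach below 0, and the deposited detection p-value belongs to each of them. Both deposited tables held identical values, so that analyses from non-normalized values were not run, and the arrays carry no chip name for a block. Negative values were replaced by 0, and the log2 of the value plus 16 was used. Probes with a detection p-value under 0.01 on all 4 arrays of at least 1 strain (10414 of 25697) were tested with limma 3.58.1 in R 4.3.3. The tests were 2-sided, with p-values adjusted by Benjamini-Hochberg over these probes and called under 0.05. Exact permutation tests of 4 against 4 mice cannot give a p below 0.0286. The steps were tested on simulated data. Groups, sex and mouse numbers came from the labels.

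Given with every mouse were the nuclear core subunits, the subunits and assembly factors around ND2, and members with an unadjusted p under 0.05 or no overlap by strain. Genes with probes of unlike sign, or with an unadjusted p under 0.05 by sex, were named with their difference. 1 member, with 2 probes, is counted in the fits, counts and medians but is not reported here on its own. Acad9, Aifm1 and Timmdc1 were named after their values were seen. Members, lists and tests were chosen with earlier results of these data known. Symbols were matched through RefSeq names and synonyms, for 36 of 36 members. Alternatives were other pseudocounts (1 and 50), other detection filters, median centring, a trend or array weights, sex as a term, the methods' t-test, the linear scale, each sex alone and leaving out each mouse. Promoter sequences came from RefSeq (GRCm38.p6).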

Additional observations from a re-analysis of the deposited data

Results flagged for a closer look

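In 5 of 92 groups of 4 mice examined (member probes, and means over roles, in each strain), 1 mouse lay so far from the nearest other that the gap made up more of the whole range than Dixon's 95% critical value allows. Chance gives this in about 1 in 20 groups. Control mouse 15 was the mouse in 3 of them, always the lowest: the mean of all complex I members (gap 0.831 of the range), the mean of the ubiquinone module (0.877) and Ndufa12 (0.882). Control mouse 16 was highest for Ndufa2 (0.903). In the Nd2-mutant strain, mouse 28 was lowest for the mean of all complex I members (0.935), although its mean deviation was -0.02 on the log2 scale and those of the other 3 lay at 0.04.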

How the results depend on the processing

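Under the alternatives run, 0 complex I probes had an adjusted p under 0.05 by strain, sex or interaction, and no paired analysis was possible because no mouse number occurs in both strains. The count of members at an unadjusted p under 0.05 by strain, 1 with all mice, was 2 with no filter on detection (6.18% of all tested probes). It was 0 with array weights (7.19%), 0 in females only (3.04%), and 0 to 2 when 1 mouse was left out. In males only it was 1 (4.82% of all tested probes), the probe of Ndufb7 in place of that of Ecsit. By sex it was 2 with array weights, where 20.7% of all tested probes did so, and 0 to 3 when 1 mouse was left out. For the interaction it was 1 with probes detected on at least 1 array, 1 with no filter, and 0 to 13 when 1 mouse was left out, the 13 being without control mouse 37, when 16.1% of all tested probes did so. In the interaction fit, leaving out 1 mouse left 1 cell of strain and sex with a single mouse. Without control mouse 37, that single mouse was control mouse 15, the only control female left. The 13 therefore rest on this array, without a replicate in its cell, and cannot tell an interaction from the low values of this mouse. The highest counts by strain and sex, 2 without control mouse 17 and 3 without control mouse 37, stood beside 13.8% and 17.4% of all tested probes. The median log2 difference was 0.21 in females only, and -0.06 (without control mouse 15) to 0.11 (without control mouse 16) when 1 mouse was left out. Array weights gave a median of 0.00, with 21 probes higher and 21 lower. Ecsit was lower under each log2 setting, from -0.47 to -0.27, with adjusted p from 0.323 to 0.945 in the settings run. Of the 11 probes of core subunits and of genes around ND2 given with every mouse, 6 kept their direction under the settings run and 5 turned under some. The Ndufs4 probe named by sex (ILMN_2663694) turned from 0.020 to -0.062 without control mouse 15. Ndufa10 was at -0.032 with array weights, -0.10 in males only, and -0.058 to 0.057 with 1 mouse left out. The Ndufc1 probes were at -0.042 (ILMN_1229975) and -0.17 (ILMN_2983247) in males only, and at -0.068 to 0.26 and -0.074 to 0.27 with 1 mouse left out. Ndufs8 was at -0.063 with array weights, -0.10 in males only, and -0.041 to 0.096 with 1 mouse left out, and Ndufv2 at 0.050 in females only. Taking the mean of the probes of each gene, an alternative added after seeing the data, gave a median log2 difference of 0.035. The cause of these changes was not tested, other than that fewer mice or probes entered a fit. With 4 mice per strain, the 95% interval excluded a 1.5-fold change for 30 of 42 probes, and for 5319 of all 10414 tested probes.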
